A study of Homo sapiens with 24 samples.

Results

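Chromatin accessibility was profiled by ATAC-seq in OCI-LY3 and VAL, both established diffuse large B-cell lymphoma (DLBCL) cell lines, after 0, 3 or 8 h with 30 nM AZD4573, a selective inhibitor of the kinase CDK9. The 487 regions described here became more accessible in OCI-LY3 at 3 h but were absent from the OCI-LY3 lists at 8 h. They were chosen by list membership. A region had to be on the list of regions increased at 3 h against 0 h, and its coordinates had to be on neither of the 2 lists (increased, decreased) at 8 h against 0 h. Of 1852 regions increased in OCI-LY3 at 3 h, 487 (26.3%, 95% Wilson interval 24.3% to 28.3%) met this rule. The other 1365 were also increased at 8 h and are called sustained regions below. No region turned from increased at 3 h to decreased at 8 h. The 4 OCI-LY3 lists together held 9235 distinct regions, and all 8 lists of both lines held 26369.

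The study comprised 24 libraries, 4 for each line at each time. Of every 4, 2 were made by standard ATAC-seq from 50000 cells and 2 by the Fast-ATAC variant for blood cells, labelled as made from 5000 cells, although the protocol text gives 50000 for Fast-ATAC. By the labels, 8 libraries were available for the 3 h OCI-LY3 comparison, and the same 0 h libraries were available as the reference at 8 h. Which of them made the lists is not given in the sources used here. The deposited lists name DMSO, the solvent, as the reference, and the labels give the reference libraries as 0 h. No DMSO libraries at 3 or 8 h were analysed here. The labels tie no library to a separate culture. Each group is 1 cell line, so nothing here speaks for other lymphomas.

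The deposited lists hold coordinates and no read count, fold change or p-value. The depth of the libraries is thus unknown and their spread cannot be given, and how near a member lay to the threshold for being listed, inside or outside, is not given by the lists. The study's text states that threshold in more than one way, so which one made the lists is uncertain. A region listed at 3 h only is one that missed it at 8 h. Its accessibility is not shown to have differed between 3 and 8 h, and a region close to the threshold at both times could fall in this set. Sustained regions had to pass a threshold at both times, so the 2 sets also differ in how strictly they were selected. The cell type could not be checked from its marker genes, since unchanged regions are not in the lists. Intervals reflect the counting of regions and nothing else, and regions are not replicates of the treatment, so the number of autosomes that shared a direction is given beside the tests of location, GC content and width.

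CDK9 is the kinase of P-TEFb, which phosphorylates RNA polymerase II and its pausing factors and so releases polymerase paused just downstream of the transcription start site (TSS) into productive elongation. ATAC-seq inserts sequencing adapters with the Tn5 transposase where DNA is not wrapped in nucleosomes. Promoters of widely expressed genes are usually open, GC-rich and dense in CpG dinucleotides, whereas enhancers lie in introns or between genes, have few CpGs and are more often open in particular cell types. The regions opened at 3 h only included promoters and regions far from any TSS, and whether the latter act as enhancers was not measured here.

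The next 5 stretches of reference sequence show these kinds of location. Each sequence is the part outside annotated exons of the central 200 bp of a member, read on the plus strand of hg19, with matches to a searched motif in capitals. PRRC2B (chr9:134269821-134270020), MAT2A (chr2:85766181-85766290) and MAFK (chr7:1570535-1570718) are promoter members of high GC content that were also increased in VAL at both times. The members nearest SIPA1L3 (chr19:38494771-38494970) and KMT2C (chr7:152038931-152039130) lie in introns far from any TSS and were in no VAL list.
PRRC2B: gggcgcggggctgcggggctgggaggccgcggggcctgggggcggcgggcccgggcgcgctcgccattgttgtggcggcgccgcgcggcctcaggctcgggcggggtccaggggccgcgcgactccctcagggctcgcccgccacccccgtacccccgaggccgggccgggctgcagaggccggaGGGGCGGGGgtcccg
MAT2A: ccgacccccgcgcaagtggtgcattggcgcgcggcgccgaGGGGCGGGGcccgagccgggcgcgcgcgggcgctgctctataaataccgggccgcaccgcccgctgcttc
MAFK: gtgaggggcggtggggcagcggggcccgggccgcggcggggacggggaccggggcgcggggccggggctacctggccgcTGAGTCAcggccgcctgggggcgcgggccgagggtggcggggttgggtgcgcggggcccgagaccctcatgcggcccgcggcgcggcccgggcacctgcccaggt
SIPA1L3: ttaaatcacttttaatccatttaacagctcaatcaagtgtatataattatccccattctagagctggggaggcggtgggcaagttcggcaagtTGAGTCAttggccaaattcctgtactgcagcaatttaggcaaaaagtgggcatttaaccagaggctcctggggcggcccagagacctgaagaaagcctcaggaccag
KMT2C: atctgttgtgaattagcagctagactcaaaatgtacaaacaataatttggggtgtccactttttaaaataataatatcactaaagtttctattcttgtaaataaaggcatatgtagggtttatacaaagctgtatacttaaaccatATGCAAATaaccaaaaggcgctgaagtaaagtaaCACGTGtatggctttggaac
The capitals mark GGGGCGGGG (SP, bound by SP and KLF proteins) at PRRC2B and MAT2A, TGANTCA (AP-1, bound by FOS and JUN proteins) at MAFK and SIPA1L3, and CACGTG (E-box) and ATGCAAAT (OCT) at KMT2C. The MAT2A stretch ends 1 bp before its TSS. GC made up 85.0% of the PRRC2B stretch, 78.2% at MAT2A and 84.8% at MAFK, against 47.0% at SIPA1L3 and 32.0% at KMT2C. With both strands searched, the SP motif was found in the central 200 bp of 4.70% of all 26369 listed regions, AP-1 in 5.94%, the E-box in 3.63% and OCT in 2.79%. A match is a description of the letters and not evidence of binding.

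Promoters made up much of the set. A promoter was taken as a region within 1000 bp of an annotated TSS, and 278 members (57.1%, 52.6% to 61.4%) met this, 244 of them (50.1%) at a protein-coding gene. In sustained regions the shares were 58.3% and 52.4%. The promoter share differed by -1.23 percentage points (95% Newcombe interval -6.37 to 3.83, adjusted p = 0.944), and the protein-coding promoter share by -2.28 points (-7.43 to 2.88, adjusted p = 0.942). These p-values are from two-sided Fisher's exact tests with Benjamini-Hochberg adjustment over 26 tests, as are those that follow unless another test is named. Neither difference passed the test, and in both the member share was higher on 12 of 22 autosomes and lower on 10. A protein-coding TSS lay inside 242 members, and 39 members (8.01%) held TSS of both strands, the arrangement of divergent gene pairs, against 136 (9.96%) of sustained regions. The midpoint of the members with a TSS inside lay a median of 71 bp downstream of that TSS (quartiles -32 and 189), and that of sustained regions 49 bp downstream. In both sets the region was thus centered near the start of the gene. Of the remaining members, 133 lay in introns, 66 between genes and 10 in exons. Only 8.28% of the 918 regions closed in OCI-LY3 at 3 h only, and 28.1% of the 3002 opened at 8 h only, lay at a protein-coding promoter. The protein-coding promoter share of the members exceeded that of the regions opened at 8 h only by 22.0 points (adjusted p = 7.38e-20).

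**Figure D1:**
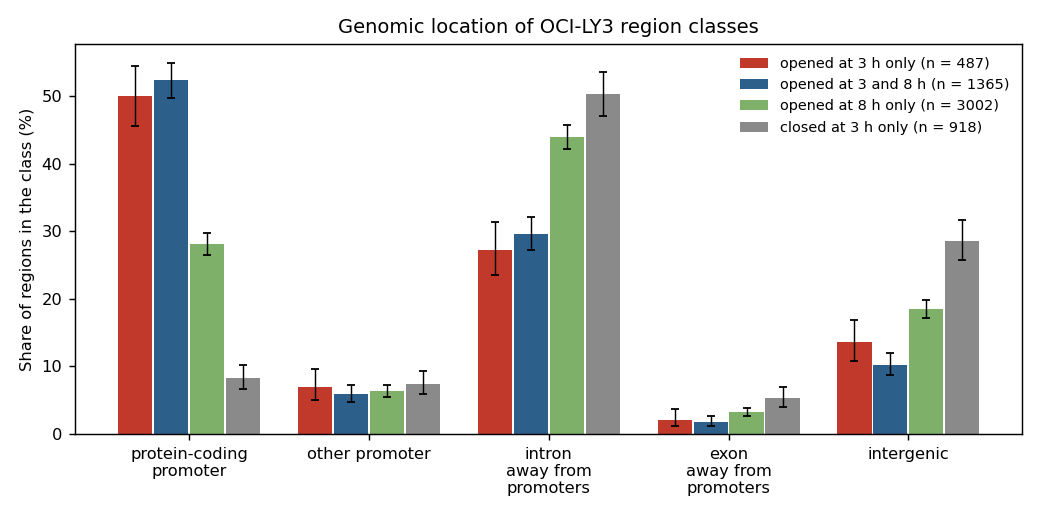
Share of regions (%, vertical axis) by genomic location for 4 classes of OCI-LY3 regions, with bars for shares and whiskers for 95% Wilson intervals. Regions opened at 3 h only (50.1%) and at both times (52.4%) reach similar heights at protein-coding promoters, and regions opened at 8 h only (28.1%) and closed at 3 h only (8.28%) are lower.

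Members lay far from a TSS more often than sustained regions did. Over 10000 bp from every TSS were 136 members (27.9%, 24.1% to 32.1%) and 277 sustained regions (20.3%, 18.2% to 22.5%), a difference of 7.63 points (3.23 to 12.3, adjusted p = 0.00534). The member share was higher on 11 of 22 autosomes and lower on 11, so the direction was not shared across chromosomes. The call was lost without chromosome 19, where the difference was 6.28 points (adjusted p = 0.0769), and within classes of GC content, where the odds ratio was 1.01 (0.765 to 1.33). At a distance of 5000 bp it was lost too, with 4.39 points (adjusted p = 0.381), and at 50000 bp the difference was 6.38 points (adjusted p = 6.43e-06). Against regions opened at 8 h only, of which 34.7% were distal, the difference turned to -6.78 points (adjusted p = 0.014). The 5 widest distal members were nearest to ANKS1B, TMEM60, EYA1, SIPA1L3 and KMT2C. KMT2C encodes a methyltransferase for histone H3 lysine 4, and SIPA1L3 a Rap GTPase-activating protein. These members were 2257 to 2622 bp wide, none was in a VAL list, and 4 of them had a GC content of 35.7% to 40.1%, with 51.1% at SIPA1L3.

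The members were less GC-rich than sustained regions, and no such difference was detected against regions opened at 8 h only. A GC content of at least 55% was found in 200 members (41.1%, 36.8% to 45.5%) and in 775 sustained regions (56.8%, 54.1% to 59.4%), a difference of -15.7 points (-20.7 to -10.6, adjusted p = 3.75e-08), and the member share was lower on 17 of 22 autosomes. Against regions opened at 8 h only, of which 38.5% had such a GC content, the difference was 2.56 points and did not pass the test (adjusted p = 0.561). Against sustained regions, a threshold of 50% gave -16.1 points (adjusted p = 1.23e-09) and one of 60% gave -7.97 points (adjusted p = 0.0105). The GC content of the central 200 bp gave -10.7 points (adjusted p = 0.000495). With whole regions and 55% again, the difference was -19.2 points among protein-coding promoters (adjusted p = 1.41e-08) and -9.64 points elsewhere (adjusted p = 0.0244), a split made after the values were seen. Median GC was 57.9% at the 244 promoter members (quartiles 52.7% and 65.3%) and 60.7% at the 715 sustained promoters. It was 43.6% at the 243 other members (38.2% and 51.1%) and 49.5% at the 650 other sustained regions. The ratio of observed to expected CpG separated the 2 kinds of member more clearly, with a median of 0.731 at promoters and 0.189 elsewhere. Sustained regions had 0.703 and 0.211. Thus promoter members had lower GC than sustained promoters at a similar CpG ratio.

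**Figure D2:**
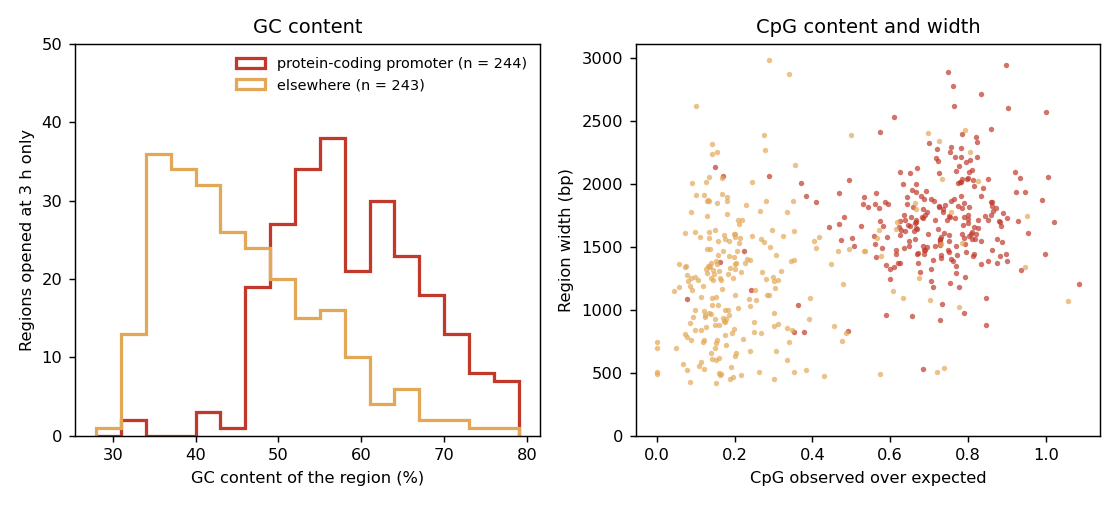
GC content (left, %, number of members on the vertical axis) and width against the ratio of observed to expected CpG (right, each point 1 region) of the 487 regions opened at 3 h only, by location at a protein-coding promoter or elsewhere. Promoter members center on a median GC of 57.9% and a CpG ratio of 0.731, and the others on 43.6% and 0.189.

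Because promoters are GC-rich, the promoter share was also compared within 5 classes of GC content. The direction then turned. In the class from 46.0% to 52.9% GC, 60 of 110 members (54.5%, 45.2% to 63.5%) but 54 of 260 sustained regions (20.8%, 16.3% to 26.1%) lay at a protein-coding promoter. In the next class, from 52.9% to 57.8%, the shares were 69.1% and 55.7%. In the 2 classes above they were 79.7% and 76.5%, then 84.3% and 90.8%, and in the lowest class 4.05% and 2.69%. The Mantel-Haenszel odds ratio over the 5 classes, whose own p-values entered the same adjustment in place of Fisher's, was 1.87 (1.42 to 2.47, adjusted p = 2.73e-05) for protein-coding promoters and 1.89 (1.44 to 2.47, adjusted p = 1.34e-05) for all promoters. The pooled odds ratio thus favored the members, but not every class did. For all promoters the members were lower in the lowest class, at 10.1% against 13.5%, and in the highest, at 87.6% against 93.6%. The widest gap was in the class from 46.0% to 52.9%. Single classes were not tested.

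**Figure D3:**
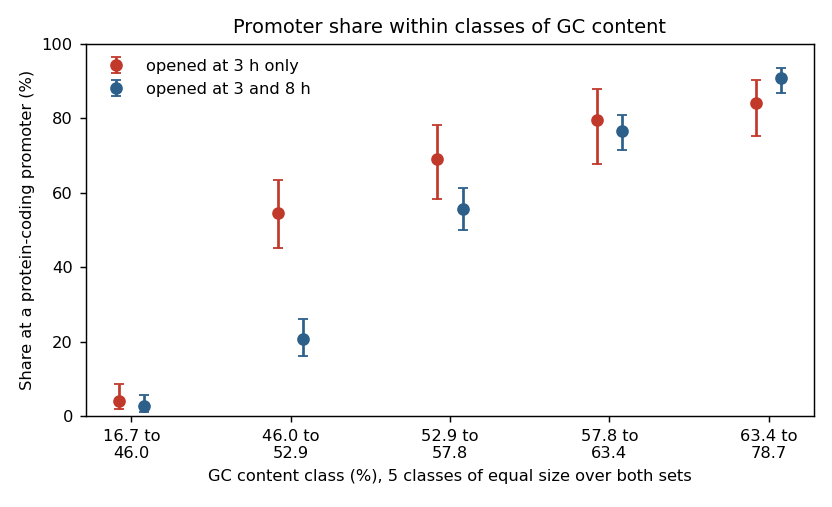
Share of regions at a protein-coding promoter (%, vertical axis) in 5 equal-sized classes of GC content (horizontal axis) for regions opened at 3 h only and at both times, with 95% Wilson intervals. The sets part most in the second class, at 54.5% and 20.8%, and their intervals overlap in the other 4.

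The members ranged from 420 to 2987 bp in width. At least 1000 bp wide were 397 members (81.5%) and 1186 sustained regions (86.9%), a difference of -5.37 points (-9.42 to -1.65, adjusted p = 0.0356), and the member share was lower on 15 of 22 autosomes. Against regions opened at 8 h only, the difference turned to 6.70 points (adjusted p = 0.00598). The call was lost without chromosome 19 (-5.34 points, adjusted p = 0.0769). It also depended on the threshold, since at 1500 bp the difference turned to 2.46 points (adjusted p = 0.942), and among protein-coding promoters, a split added after the values were seen, it was -0.751 points (adjusted p = 0.944). Promoter members were wider, with a median of 1708 bp, than other members, with 1258 bp. The widest member lay in an intron, 51052 bp from the TSS of BAHCC1, and was 2987 bp wide. The next were at or nearest to ZNF236 (2946 bp), BRI3BP (2889 bp), ARRDC2 (2877 bp), CCNQ (2779 bp), TERF2IP (2719 bp), PRRC2B (2626 bp), ANKS1B (2622 bp), CDYL (2603 bp) and QKI (2577 bp). CCNQ encodes the cyclin partner of CDK10, TERF2IP a telomere protein of the shelterin complex, CDYL a chromodomain protein of repressive complexes and QKI an RNA-binding regulator of splicing. Of these 10, BAHCC1, ARRDC2 and PRRC2B were also increased in VAL at both times and the other 7 were in no VAL list.

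Chromosome 19, rich in genes and in clusters of zinc finger genes, stood apart. It was tested because it had stood apart in earlier results of these data, so its p-values do not come from an independent choice. It carried 24 members (4.93%, 3.33% to 7.23%) and 220 sustained regions (16.1%, 14.3% to 18.2%), a difference of -11.2 points (-13.8 to -8.23, adjusted p = 4.17e-10). Of the OCI-LY3 regions on this chromosome that increased at 3 h, 9.84% were members, against 26.3% over all chromosomes. The difference was -14.7 points among protein-coding promoters (adjusted p = 5.27e-07) and -7.12 points elsewhere (adjusted p = 0.00348), again a split made after the values were seen. Chromosomes X, 8, 4, 16 and 22 were picked after their values were seen and have no test. Chromosome X held 32 members (6.57%, 4.69% to 9.13%) and 38 sustained regions (2.78%, 2.03% to 3.8%). Chromosome 8 also held 32 members, against 40 sustained regions (2.93%, 2.16% to 3.97%), and chromosome 22 held 2 members.

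**Figure D4:**
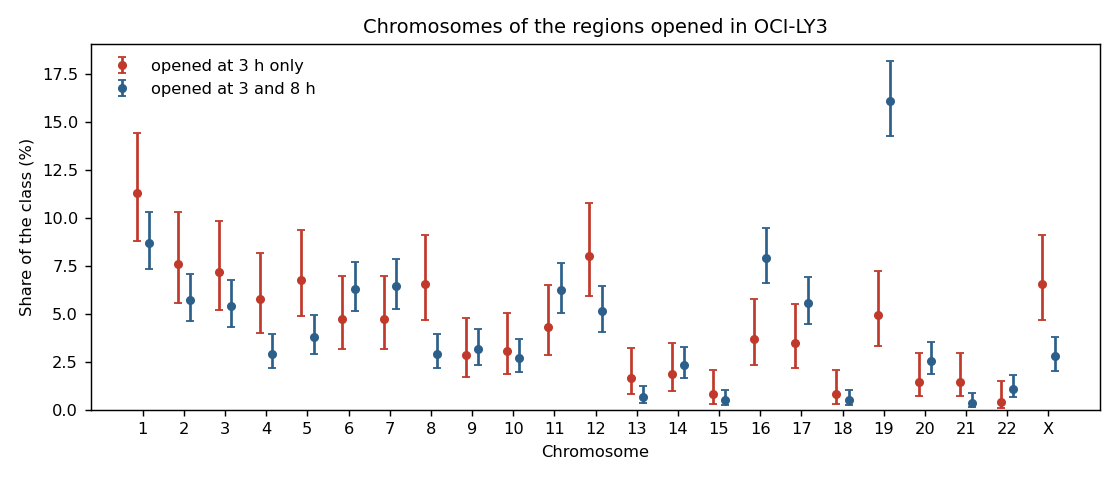
Share of each class (%, vertical axis) by chromosome for regions opened at 3 h only (n = 487) and at both times (n = 1365), with 95% Wilson intervals. Chromosome 19 holds 4.93% and 16.1%, and chromosome X 6.57% and 2.78%.

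Fewer members than sustained regions lay beside other opened regions, a description with no test. Within 10000 bp of another region opened at both times were 25 members (5.13%, 3.50% to 7.47%) and 179 sustained regions (13.1%, 11.4% to 15.0%). Within the same distance of a region opened at 8 h only were 28 members (5.75%, 4.01% to 8.18%) and 224 sustained regions (16.4%, 14.5% to 18.5%). Regions closed at 8 h lay that close to 10 members (2.05%, 1.12% to 3.74%) and 22 sustained regions (1.61%, 1.07% to 2.43%), with intervals that overlap. Any region on an 8 h list lay that close to 58 members (11.9%) and 378 sustained regions (27.7%). No member overlapped a region on an 8 h list, so overlap in place of equal coordinates gave the same set. Members rarely grouped, and a single run of 3 or more with gaps of at most 50000 bp was found, on chromosome 12 from 58087320 to 58136324. Its first region lay at the promoter of OS9, which encodes a lectin of endoplasmic reticulum-associated degradation, and its last at that of AGAP2, a GTPase-activating protein. The middle region was the one of these 3 increased in VAL, at 3 h.

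None of 20 searched motifs differed between the members and sustained regions in the central 200 bp by the adjusted Fisher's exact test. At an unadjusted p under 0.05 there was 1, the ETS motif CCGGAAGT of promoters. It was in 12 members (2.46%) and 65 sustained regions (4.76%), with p = 0.0335 and adjusted p = 0.174 by Fisher's exact test. It was found in 1.18% of all listed regions. The E2F motif TTCCCGCC went the other way, with 3.08% of members and 1.68% of sustained regions (adjusted p = 0.381). The SP motif was in 5.54% and 7.55% (adjusted p = 0.43) and AP-1 in 2.26% and 3.88% (adjusted p = 0.381). The CTCF motif was in 1.44% of members, 1.98% of sustained regions, 4.25% of regions closed at 3 h only and 4.0% of all listed regions. Motif matches were also counted by location, with no test of the split. All 12 members with ETS and 24 of 27 with SP were at protein-coding promoters, whereas 13 of 14 with OCT, 14 of 17 with RUNX and 9 of 11 with AP-1 were elsewhere. E2F was at 13 promoter members and 2 others, YY1 at 7 and 0, and NF-kB at 5 and 1. More evenly placed were NFY at 9 and 7, the E-box at 13 and 7, IRF at 4 and 4, and CTCF at 4 and 3. At least 1 of the 20 motifs was present in 149 members.

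VAL was used to ask how the same coordinates behaved in a second line, whose libraries the rule did not use. Of the 487 members, 83 (17.0%, 14.0% to 20.6%) were increased in VAL at 3 h, close to the 15.4% of all regions in the OCI-LY3 lists. At 8 h, 134 members (27.5%, 23.7% to 31.6%) were increased, again close to the 28% of all regions. No member was decreased in VAL at 3 h, where the share over all regions was 5.15%, and 33 (6.78%, 4.87% to 9.36%) were decreased at 8 h, against 14.4%. These backgrounds are over regions of every class, closed ones included. Those for increases lie inside the members' intervals, and those for decreases lie above them. Sustained regions were increased in VAL far more often, 646 (47.3%) at 3 h and 873 (64.0%) at 8 h. The differences were -30.3 points (-34.3 to -25.8) and -36.4 points (-41.0 to -31.6). Decreases at 8 h were more frequent among members, by 6.12 points (4.12 to 8.72), since 9 sustained regions (0.659%) had one. No test was run on these shares. In all, 146 members (30.0%) were increased in VAL at either time, against 66.2% of sustained regions and 49.2% of regions opened at 8 h only. In no VAL list were 308 members (63.2%), 33.1% of sustained regions, 49.9% of regions opened at 8 h only and 73.3% of regions closed at 3 h only.

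Calls in VAL went with location in the members and in the other opened classes. Of the 244 promoter members, 67 (27.5%, 22.2% to 33.4%) were increased at 3 h and 107 (43.9%, 37.8% to 50.1%) at 8 h. Of the 243 others, 16 (6.58%, 4.09% to 10.4%) and 27 (11.1%, 7.75% to 15.7%) were. Promoter members exceeded the others by 20.9 points at 3 h (14.4 to 27.3) and by 32.7 points at 8 h (25.1 to 39.9). At promoters the members still fell below sustained regions, of which 64.6% were increased at 3 h and 81.5% at 8 h, and below regions opened at 8 h only, with 41.3% and 76.5%. Away from protein-coding promoters the shares were 28.3% and 44.6% in sustained regions and 14.6% and 37.5% in regions opened at 8 h only. The lower shares away from promoters were thus no trait of the members alone. Decreases at 8 h were found at 3 promoter members (1.23%, 0.419% to 3.55%) and at 30 others (12.3%, 8.79% to 17.1%).

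**Figure D5:**
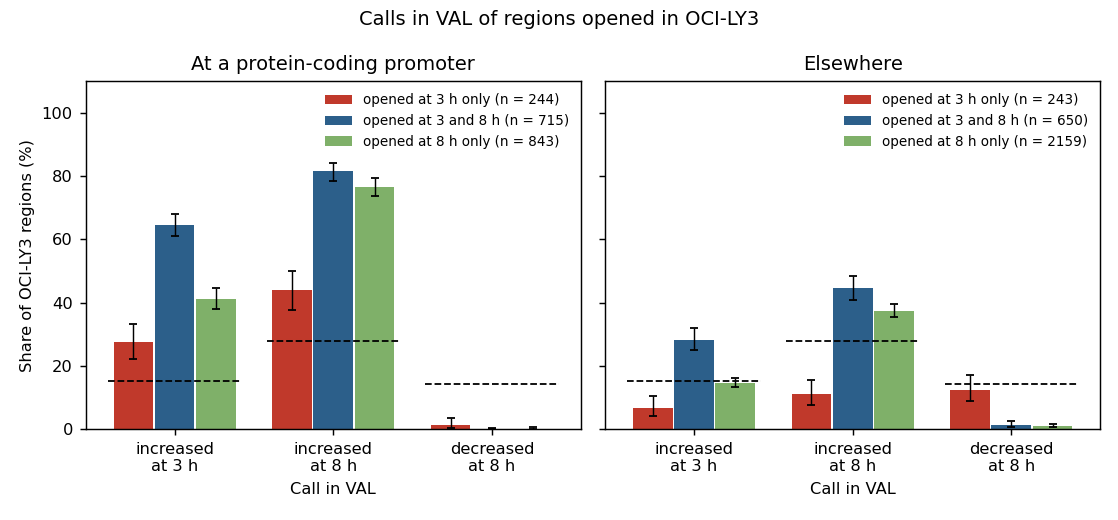
Share of OCI-LY3 regions (%, vertical axis) on each VAL list, at protein-coding promoters (left) and elsewhere (right), for 3 classes opened in OCI-LY3, with 95% Wilson intervals and dashed lines for all regions in the OCI-LY3 lists. The dashed lines are the same in both panels and not split by location, so they are no matched background for either panel. Regions opened at 3 h only are the lowest of the 3 classes for increases in both panels, and the highest for decreases at 8 h outside promoters, at 12.3%.

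The members that were increased in VAL at 3 h mostly stayed increased there. Of the 83, 71 (85.5%, 76.4% to 91.5%) were also increased in VAL at 8 h, against 615 of 646 sustained regions (95.2%, 93.3% to 96.6%) and 93.3% of all 3545 regions increased in VAL at 3 h. The remaining 12 were at 3 h only in both lines, which is 2.46% of the members and 5.06% of the 237 such regions of VAL. The same VAL call was found in 31 sustained regions (2.27%, 1.60% to 3.21%), inside the members' interval of 1.42% to 4.26%. These 12 are named because they are few, after their values were seen. Of them, 7 lay at protein-coding promoters, those of KTI12, WDR26, VTI1A with ZDHHC6, ST14, CNPY2, SLC30A6 and KRIT1 with ANKIB1. WDR26 encodes a subunit of the CTLH ubiquitin ligase, VTI1A a SNARE protein of vesicle fusion, ST14 the membrane protease matriptase and SLC30A6 a zinc transporter. The other 5 were nearest to KAZN, CNST, OS9, MYL5 and TP53INP1.

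Of the 60 members with a protein-coding TSS inside that were increased in VAL at both times, 53 had a GC content of at least 55%, with a median of 64.0% and a range from 48.7% to 78.1%. The 10 widest were those of PRRC2B, MAT2A, GNB1, MAFK, BRD1, TBC1D24, PGAP6, DNAJC5, TBC1D9B and TUBB4B, at 1828 to 2626 bp. The GC content of these 10 ran from 61.8% at MAT2A to 76.4% at GNB1, and their CpG ratio from 0.725 at MAFK to 0.933 at BRD1. MAT2A encodes the enzyme that makes S-adenosylmethionine, GNB1 a G protein beta subunit, MAFK a small MAF transcription factor that pairs with other basic leucine zipper proteins, BRD1 a scaffold of histone acetyltransferase complexes, DNAJC5 a chaperone of synaptic vesicles and TUBB4B a beta-tubulin. Over all 146 members increased in VAL at either time, the median GC was 61.9%, 78.1% were at protein-coding promoters and 6.85% were over 10000 bp from a TSS.

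The 33 members that were decreased in VAL at 8 h had the opposite makeup. Their median GC was 40.0%, 9.09% were at protein-coding promoters and 60.6% were over 10000 bp from a TSS. The 3 promoters were those of NRIP1, a corepressor of nuclear receptors (2437 bp, 64.6% GC), CCDC170 (1370 bp, 59.8% GC) and RLN2, the hormone relaxin (832 bp, 51.6% GC). Of the others, 17 lay in introns, 10 between genes, 1 in an exon and 2 at promoters of noncoding genes, RNU5F-1 among them. The nearest protein-coding gene start was often far off. It was 37332 bp away for the member nearest to HHEX, a homeobox gene of blood progenitors and B cells, which held matches to the OCT and IRF motifs. For the member nearest to TRIB2 it was 102834 bp away, and for that nearest to TGFBR2, a receptor for TGF-beta, 24646 bp. The 308 members in no VAL list lay between, with a median GC of 49.3%, 41.2% at protein-coding promoters and 34.4% over 10000 bp from a TSS.

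The promoter members belonged to 301 of 20149 protein-coding genes (1.49%), and sustained regions to 894 (4.44%). Both kinds were found at 2 genes. Of 22 gene lists that cover transcription, B-cell biology and basic cell functions, 8 had no gene with a member at its promoter, namely RNA polymerase II subunits (0 of 13 genes), immediate early genes (0 of 34), the NF-kB pathway (0 of 32), the BCL2 family (0 of 16), the p53 axis (0 of 22), B-cell transcription factors (0 of 24), CTCF and cohesin (0 of 15) and chromatin modifiers mutated in DLBCL (0 of 16). Each of these lists had 2 to 4 genes with a sustained region. Across the 22 lists, 50 of 1311 genes had a member. These counts are descriptions, to be read beside the 1.49% of all genes with a member and the 4.44% with a sustained region, and no list was tested. Since the deposited lists hold changed regions only, a gene without a member may have had an open promoter that did not change.

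Genes of the elongation and Mediator machinery were among those with a member. Of 39 genes of P-TEFb, pausing and elongation, 2 had one (5.13%) and 7 had a sustained region (17.9%). One was MLLT1, an acetyl-lysine reader of the super elongation complex, at chr19:6279173-6280540, with 73.0% GC and an increase in VAL at both times. The other was SSRP1, a subunit of the histone chaperone FACT, at chr11:57102314-57103978, with 57.4% GC and no VAL call. Of 33 Mediator genes, 3 had a member (9.09%), MED17, MED22 and MED28, and 2 had a sustained region. Mediator links transcription factors to RNA polymerase II at promoters. The MED22 region was increased in VAL at both times and is shared with RPL7A, while the MED17 and MED28 regions were in no VAL list.

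In B-cell receptor signaling, BTK, the kinase targeted by ibrutinib, was the 1 gene of 24 with a member, at chrX:100645374-100647089 with 49.5% GC. That region is shared with RPL36A, and which gene start it belongs to cannot be told apart. Of 508 zinc finger genes, taken as those with a ZNF symbol, 21 had a member (4.13%) and 56 a sustained region (11.0%), and 9 of the 21 were on chromosome 19. The members of 6 were also increased in VAL, at both times for ZNF26, ZNF615 and ZNF721 and at 8 h for ZNF16, ZNF592 and ZNF84. Many genes with such symbols encode DNA-binding proteins, some with a KRAB repressor domain and others without one. Of 64 replication-dependent histone genes, 1 had a member, H2AC8, with 47.3% GC and no VAL call. Reads that align to several near-identical copies were removed upstream, and what this did to the counts of such families was not tested.

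Ribosomal protein genes were represented on both sides. Of 80 cytosolic ribosomal protein genes, 5 had a member (6.25%), RPL30, RPL36A, RPL37, RPL37A and RPL7A, and 19 a sustained region (23.8%). All 5 encode proteins of the large subunit. The RPL30, RPL36A, RPL37 and RPL37A regions had 49.5% to 52.8% GC and no VAL call, and the RPL7A region had 64.2% GC and was increased in VAL at both times. Of 78 mitochondrial ribosomal protein genes, 5 had a member (6.41%) and 13 a sustained region (16.7%). Here the MRPL12, MRPL41 and MRPL58 regions were increased in VAL at both times and the MRPL27 region at 8 h, and MRPL44 had no VAL call. Of 95 oxidative phosphorylation genes, 5 had a member (5.26%) and 14 a sustained region (14.7%). They were NDUFA1 of complex I, UQCR11 and UQCRC1 of complex III, and COX6A1 and COX6C of complex IV. UQCR11 and UQCRC1 were increased in VAL at both times and COX6A1 at 8 h, and NDUFA1 and COX6C had no VAL call.

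The remaining lists had 1 or 2 genes each. The proteasome list had 2 of 48, PSMD2 and PSMD8 of the 19S regulatory particle, of which PSMD8 was increased in VAL at 8 h. In the 2 lists on splicing, SRSF11 was the 1 of 37 in the SR and hnRNP list. LSM12 was the 1 of 45 in the spliceosome core list, with an increase in VAL at both times. Being on that list is not evidence that LSM12 acts in the spliceosome. EIF3I, a subunit of the initiation factor eIF3, was the 1 of 56 translation initiation factors and was increased in VAL at 8 h. KARS1, the lysyl-tRNA synthetase, was the 1 of 17 tRNA synthetases, in a region it shares with TERF2IP. DNAJB4, a co-chaperone of HSP70, was the 1 of 24 heat shock genes, at a promoter with 33.7% GC, the lowest of the promoter members. As over all genes, more genes of each of these lists had a sustained region than a member, from 3 for heat shock genes and tRNA synthetases to 9 for the proteasome.

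A further 34 members lay at promoters of genes other than protein-coding, nearest to a long noncoding RNA in 19 and to a small nuclear RNA (snRNA) gene in 8. The snRNAs are short RNAs of the spliceosome, most of them made by RNA polymerase II from promoters of their own kind. These 8 were chosen after their values were seen and have no test. They made up 1.64% of the members (0.835% to 3.21%), against 3 sustained regions (0.22%, 0.0748% to 0.644%), 7 regions opened at 8 h only (0.233%, 0.113% to 0.481%) and 1 closed at 3 h only. The genes were RNU4-2 (U4), RNU4ATAC (U4atac of the minor spliceosome), RNU5A-1, RNU5F-1 and RNU5E-6P (U5) and RNVU1-18, RNVU1-19 and RNU1-27P (U1). The regions were 1079 to 2435 bp wide with 43.2% to 56.5% GC. Of them, RNVU1-19 was increased in VAL at 8 h, RNU5F-1 was decreased there at 8 h, and the other 6 were in no VAL list. Several belong to multicopy families, in which multiply aligned reads were removed. Signal over repeated parts may thus be missing, and what this did to the counts was not tested.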

How the data were processed

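Per the labels and the study's methods, the authors aligned ATAC-seq reads to hg19 with Bowtie2 (very-sensitive setting), removed mitochondrial, non-uniquely aligned and duplicate reads, called peaks per sample with MACS2, merged these with bedtools and, from read numbers over the merged peaks, tested each line's 3 and 8 h libraries against its 0 h libraries by DESeq2. Whether reads were shifted for the transposase, which libraries of each group were used, and whether library protocol entered the model, is not given in the sources used here. The deposited lists give chromosome, start and end in bp of the regions called increased or decreased, with 0 columns of per-sample values.

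Regions of the 8 lists were matched by equal coordinates, since no distinct regions overlapped. Distances used TSS of GENCODE v44 (GRCh37 lift, basic transcripts, which share the build of the lists). Fisher's exact tests compared members with sustained regions, with Wilson and Newcombe 95% intervals (Python 3.11.15, scipy 1.17.1, statsmodels 0.14.6, pandas 2.3.3, pysam 0.24.0). Motifs were fixed letters on both strands, with 1 mismatch for CTCF and IRF. Scripts were tested on simulated data. Alternatives changed the promoter and distal distances, GC and width thresholds, motif window, comparison regions, chromosomes and GC classes.

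The members, lists and tests were chosen with earlier results of these data known. Genes were named by rule: list genes with a member at the promoter (for zinc finger genes, those called in VAL), the 10 widest members, the 10 widest promoters increased in VAL at both times, runs of 3 or more, the 5 widest distal members and genes at members decreased in VAL. Of the latter, the promoters and 3 examples are given. Sequences were those eligible under this rule with a motif, at most 3 of each kind, none from chromosome 8 and none from annotated exons. That selection, and the choice of the 3 examples, was made after values were seen.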

Additional observations from a re-analysis of the deposited data

How the results depend on the processing

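Of 73 alternatives, 50 left the direction and call as reported, or the value or count within its range. With regions opened at 8 h only in place of sustained regions, the differences became 22.7 points for promoters, 22.0 for protein-coding promoters, -6.78 for distal regions, 2.56 for high GC (call lost) and 6.70 for wide regions, all but that for high GC past the threshold, 3 motifs passed the adjusted test in place of 0, and the VAL differences were -5.08 points at 3 h and -20.9 at 8 h. Without chromosome 19, promoters differed by 0.481 points and protein-coding promoters by 0.12, and the calls for distal regions (6.28 points) and wide regions (-5.34 points) were lost. The adjustment there still counted 26 tests, although the one of chromosome 19 was empty. Over GC classes the odds ratios were 1.89 for promoters, 1.87 for protein-coding promoters and 1.01 for distal regions. A distal distance of 5000 bp gave 4.39 points with no call, and a width of 1500 bp gave 2.46 points. Splits added after seeing the data gave, at protein-coding promoters, -0.751 points for wide regions, -37.2 for VAL increases at 3 h and 1.23 for decreases at 8 h, and elsewhere -9.03 (call lost), -21.7 and 11.0. The same splits kept the calls for GC and chromosome 19. Leaving out chromosome X, also added then, changed no call. The causes were not tested. A member count of 429 was left without those within 10000 bp of an 8 h region, and 482 after merging neighbors. No paired analysis was possible because region lists carry no measurement of any single library, and for the same reason no replicate could be left out.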
